A study of Bos taurus with 10 samples.

Results

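Lysine tRNA fragments are the small RNAs of bull sperm that were counted on transfer RNAs for lysine, and they were taken here as every row of the deposited table of tRNA-derived small RNAs whose name gives a lysine tRNA together with 1 of 4 fragment types. The types are fragments from the 5′ end, fragments from the 3′ end, other fragments, and reads over the whole tRNA, as the row names give them. The rule found 136 of 184397 rows, which are 34 tRNA entries with 4 types each. Of these, 8 entries (32 rows) are tRNA-Lys-CTT, with the anticodon CTT, and 26 entries (104 rows) are tRNA-Lys-TTT, with the anticodon TTT. The 4 types hold 1468 rows over tRNAs of every isotype.

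Total RNA of sperm from 10 samples was made into small RNA libraries. Of these, 3 are labelled high and 3 low bull fertility, and 3 are labelled high and 3 low associated daughter fertility, which makes 4 groups. The low bull fertility samples and the low daughter fertility samples are separate samples, but 2 samples carry both kinds of label. Both are high bull fertility samples, 1 with high and 1 with low daughter fertility. All groups are sperm with no treatment. Breed, age, semen fraction and whether each sample is a separate bull are not stated in the labels, so a p-value here covers no more than the spread among these libraries, part of which may be technical.

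A tRNA with the anticodon CTT reads the lysine codon AAG, and one with TTT (UUU in the RNA) reads AAA. The anticodon loop of the TTT tRNA is heavily modified in mammals, and the same tRNA is the primer that human immunodeficiency virus uses to start reverse transcription. In mouse cells, fragments from the 3′ end of tRNAs have been described as able to hinder retroviral elements that use such a primer. Fragments from the 5′ part of tRNAs, made by a cut in the anticodon loop, are a main class of small RNA in mammalian sperm, and in the mouse much of this class is gained during passage through the epididymis.

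Levels below are the authors' normalized counts, 1 value for each group. Every positive value is a whole number of reads times what 1 read is worth in 1 of the group's 3 libraries, so the library and the reads behind it are known. The group values stand where medians of 3 libraries would. In 219 rows of the whole table with a mean of at least 10, all 3 high bull fertility libraries can be seen, and the group value was the middle one in 219 of these 219. A read is worth between 0.453 and 1.62 normalized counts, and intervals on reads cover counting error only. Levels are not divided by length, since fragment lengths are not given. Each fold change and p-value is that of the authors' deposited table, with high fertility over low. The standard error (SE) beside it was derived from that fold change and p. For abundant rows the SE was nearly the same in both comparisons, such as 0.9367 and 0.9366 for the 5′ row of tRNA-Lys-TTT-2. Which groups the authors fitted together is not stated, so an SE may not describe the spread of the compared groups alone. In a bulk sample, fewer cells of a type and less RNA per cell cannot be told apart.

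As a check of the tissue, the germ cell microRNAs miR-34c, miR-34b and miR-449a had mean normalized counts of 692 to 1914 and of 939 to 2442 in the bull and the daughter fertility microRNA tables that the authors deposited. The markers of leukocytes, epithelium, red blood cells, stroma and skeletal muscle ranged from 4.29 to 167 and from 5.47 to 180 in these tables. None of the 20 markers was at 0. These tables give no level per group that was used here, and the part of other cells in the lysine fragments was not tested.

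Of the 136 rows, 54 were at 0 in every group, 29 were above 0 with a mean over the groups under 10, and 53 had a mean of at least 10. Among the last, 15 belong to CTT and 38 to TTT. They came from 25 of the 34 entries. Several of these 53 rows may not stand for separate fragments: 14 of them fell into 5 sets whose 4 group values were within 2% of each other, which left 44 distinct patterns. Reads that fit several near-identical tRNAs may be shared among entries, and the counting rule is not given in the sources used here. The RefSeq annotation of the bovine assembly ARS-UCD2.0, used for names alone, lists 31 genes named TRNAK-CUU and 50 named TRNAK-UUU.

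**Figure D1:**
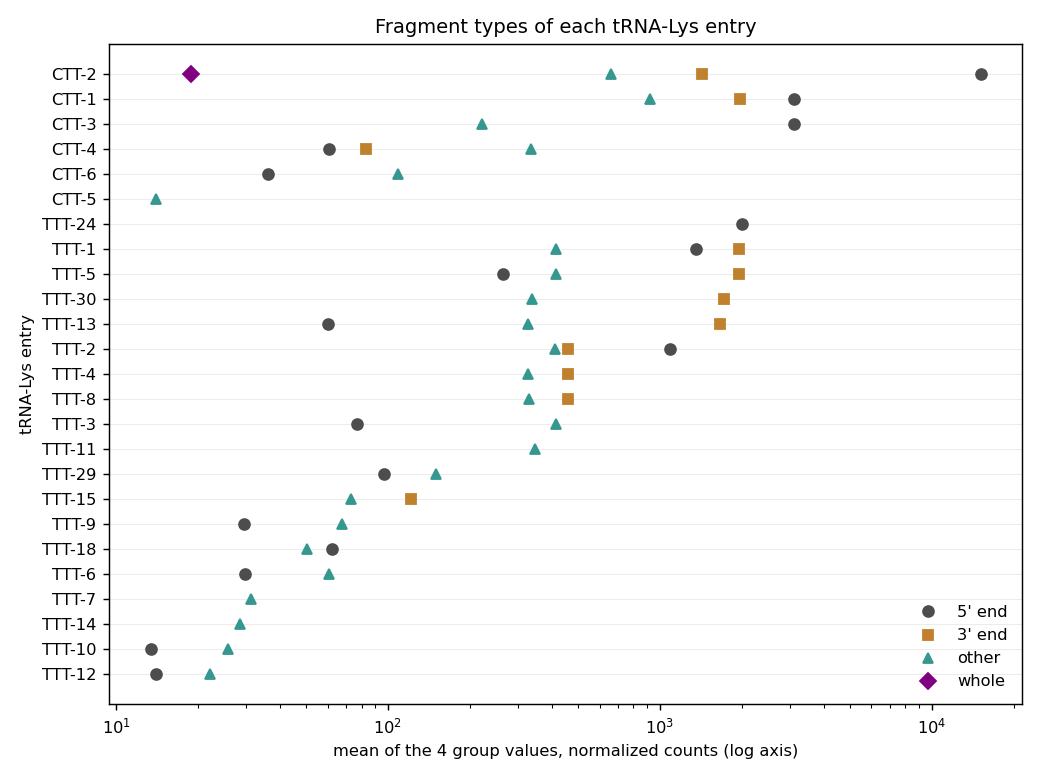
Mean of the 4 group values in normalized counts (log axis) for each lysine tRNA entry with at least 1 row of mean 10 or more, CTT entries above TTT entries. Each mark is 1 fragment type. CTT-2 has the highest 5′ mark, TTT-24 has a 5′ mark alone, and 4 TTT entries have 3′ marks above 1000.

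The CTT family was led by a single 5′ fragment. The 5′ row of tRNA-Lys-CTT-2 had 11189 normalized counts in the high and 17683 in the low bull fertility group, and 19009 in the high and 12778 in the low daughter fertility group. These values rest on 11172, 16719, 14922 and 28218 reads of 1 library each. The fertility labels pointed in opposite directions: the high group was below the low group for bull fertility and above it for daughter fertility. For bull fertility the authors' deposited table gives a log2 fold change of -0.53 (SE 0.77, p = 0.488), and for daughter fertility one of -0.01 (SE 0.77, p = 0.989). For daughter fertility that fold change is near 0 although the group values differ by 0.57 on the log2 scale. The adjusted p (Benjamini-Hochberg over all rows with a p) was 1 in both comparisons.

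The next CTT fragments were the 5′ rows of tRNA-Lys-CTT-1 and tRNA-Lys-CTT-3, which differed by less than 2% in every group and may hold the same reads. CTT-1 had 2831 normalized counts in the high and 2784 in the low bull fertility group, and 3227 in the high and 3600 in the low daughter fertility group. The library labelled high bull and low daughter fertility gave the 3600, so 1 high bull fertility library lay well above the middle values of both bull fertility groups. Whether the ranges of these groups overlap is not seen. Log2 fold changes in the authors' deposited table were -0.38 (SE 0.72) for bull fertility and -0.27 (SE 0.72) for daughter fertility.

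Below these, the 5′ rows of CTT-4 and CTT-6 stood at 21.7 to 83.0 normalized counts. CTT-6 had 43.3 in the high against 21.7 in the low bull fertility group, and 32.4 in the high against 47.5 in the low daughter fertility group, from 60, 41, 20 and 105 reads. Its log2 fold changes in the authors' deposited table were 0.93 (SE 0.87) and -1.30 (SE 0.87), of opposite sign. Neither passed the threshold. The other 3 CTT entries had 5′ means under 10.

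**Figure D2:**
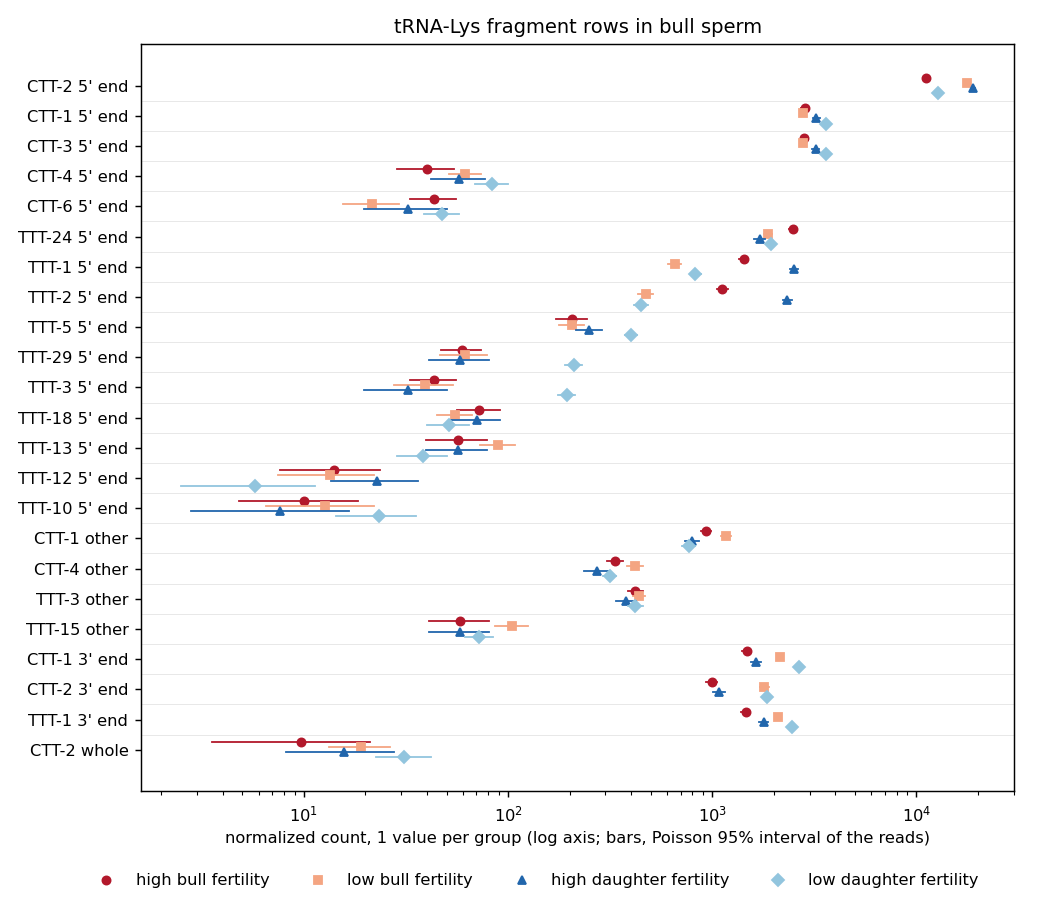
Normalized count of each named row (log axis) in the 4 groups, high fertility above low within each pair, with the Poisson 95% interval of the reads behind each value as a bar. CTT-2 5′ spans 11189 to 19009, and the 5′ rows of TTT-1 and TTT-2 have both high fertility groups above both low ones.

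The TTT family had several 5′ fragments of like level. The highest by mean, the 5′ row of tRNA-Lys-TTT-24, had 2474 normalized counts in the high and 1874 in the low bull fertility group, and 1704 in the high and 1945 in the low daughter fertility group. In the library labelled high for both traits it stood at 1704, below the middle value of the low bull fertility group, so the ranges of the bull fertility groups overlap. Fold changes in the authors' deposited table were 0.13 and 0.03 on the log2 scale (SE 0.71 each). TTT-24 was made up almost wholly of 5′ fragments, which were 99.4% to 99.8% of its level in the 4 groups. Its 3′ row is listed at 0 in all of them.

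The 5′ rows of tRNA-Lys-TTT-1 and tRNA-Lys-TTT-2 were higher in value in both high fertility groups. TTT-1 had 1423 normalized counts in the high against 654 in the low bull fertility group, and 2517 in the high against 827 in the low daughter fertility group. TTT-2 had 1121 in the high against 473 in the low bull fertility group, and 2331 in the high against 449 in the low daughter fertility group. Reads behind the TTT-2 values were 1119, 529, 1440 and 622, and its Poisson 95% intervals were 1056 to 1188 in the high and 433 to 515 in the low bull fertility group, and 2212 to 2454 in the high and 414 to 486 in the low daughter fertility group.

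For both fragments all 3 high bull fertility libraries can be read, because the high bull, high daughter and low daughter fertility values each came from a different one of them. TTT-1 had 2517 normalized counts in the library labelled high for both traits, 1423 in the library labelled high bull fertility alone, and 827 in the library labelled high bull and low daughter fertility. For TTT-2 the same libraries had 2331, 1121 and 449. The high bull fertility libraries were thus spread over a wide range, with the order set the same way in both fragments. That order is also the order of what 1 read is worth in these libraries, 1.62, 1.00 and 0.722. Reads were 1555, 1421 and 1146 for TTT-1, and 1440, 1119 and 622 for TTT-2. How much of the spread comes from this scaling was not tested. In TTT-2 the lowest high bull fertility library, 449, was below the middle value of the low bull fertility group, 473, so those groups overlap. In TTT-1 the lowest, 827, was above the middle value of the low group, 654, and the highest low library is not seen. Each daughter fertility value of these fragments is the value of a library that also counts as high bull fertility, and the other libraries of the daughter fertility groups are not seen.

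Neither fragment passed the threshold. In the authors' deposited table the log2 fold change of TTT-2 was 1.59 (SE 0.94, 95% interval -0.24 to 3.43, p = 0.0894, authors' test) for bull fertility and 1.77 (SE 0.94, 95% interval -0.07 to 3.61, p = 0.0587) for daughter fertility. For TTT-1 the authors' deposited table gives 1.25 (SE 0.77, p = 0.107) and 1.06 (SE 0.77, p = 0.169). Adjusted p by Benjamini-Hochberg over all rows was 1 throughout. As a description, TTT-2 had the highest fold change in the authors' deposited table among the 657 tRNA rows of these types with a mean of at least 10, in each comparison. TTT-1 ranked 5 and 4 from the top in that list. The comparisons share 2 samples, so these ranks are not independent of each other.

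**Figure D3:**
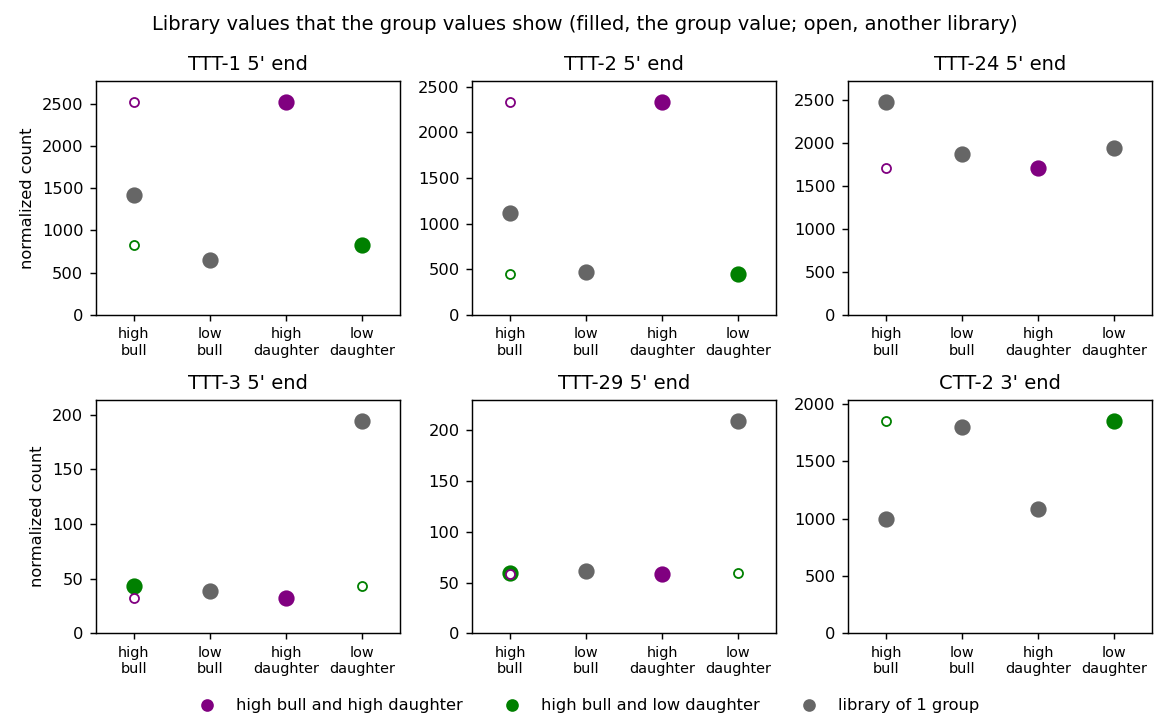
Library values that can be read from the group values for 6 fragments, in normalized counts from 0, by group. Filled marks are the group value and open marks are another library of that group, with the 2 libraries that carry both labels in purple and green. TTT-1 and TTT-2 5′ show 3 high bull fertility libraries from 827 to 2517 and from 449 to 2331, and TTT-3 and TTT-29 5′ show 1 low daughter fertility library far below the group value.

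Another pattern held in TTT-3 and TTT-29, where the low daughter fertility group stood apart. The 5′ row of TTT-3 had 43.3 normalized counts in the high and 39.1 in the low bull fertility group, and 32.4 in the high and 194 in the low daughter fertility group. TTT-29 had 59.2 and 61.3 in the high and low bull fertility groups, and 58.3 and 209 in the high and low daughter fertility groups. In both fragments the low daughter fertility value came from 1 library, the one in which a read is worth least (0.453), with 429 and 462 reads. The low daughter fertility library that is also labelled high bull fertility had 43.3 for TTT-3 and 59.2 for TTT-29, close to the other groups. The low daughter fertility libraries thus differed widely among themselves. If the group value is the middle one of 3 libraries, the remaining low daughter fertility library, which is not seen, was at or above 194 and 209. For daughter fertility, log2 fold changes of the authors' deposited table were -1.87 (SE 0.83, p = 0.0245, authors' test) and -1.34 (SE 0.80, p = 0.0924).

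The smallest p of any lysine row belonged to the 5′ row of tRNA-Lys-TTT-10, which is a fragment of few reads. It had 10.0 normalized counts in the high and 12.7 in the low bull fertility group, and 7.64 in the high and 23.3 in the low daughter fertility group, from 10, 12, 6 and 21 reads. Its daughter fertility values have Poisson 95% intervals of 2.80 to 16.6 in the high and 14.4 to 35.6 in the low group, which overlap. The authors' deposited table gives a log2 fold change of -2.41 (SE 0.99, p = 0.0149) for daughter fertility and of -1.52 (SE 0.98, p = 0.120) for bull fertility, both with an adjusted p of 1 by Benjamini-Hochberg. The log2 ratio of the group values was nearer 0. For bull fertility it was -0.31 with a pseudocount of 1 and -0.18 with a pseudocount of 10. For daughter fertility it was -1.49 with a pseudocount of 1 and -0.91 with a pseudocount of 10.

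Other TTT 5′ fragments went in no shared direction. TTT-5 had 206 and 205 normalized counts in the high and low bull fertility groups, and 250 and 401 in the high and low daughter fertility groups. TTT-18 had 72.1 in the high and 55.0 in the low bull fertility group, and 70.1 in the high and 51.3 in the low daughter fertility group. TTT-13 had 56.6 in the high and 89.3 in the low bull fertility group, while its log2 fold change in the authors' deposited table is positive, at 1.31 (SE 1.09). The middle library and the authors' fit thus give opposite directions for it. TTT-12 had 14.0 and 13.4 in the high and low bull fertility groups, and 22.9 and 5.78 in the high and low daughter fertility groups. TTT-6 and TTT-9 had equal values in 3 of the groups, 28.0 and 43.4 in the high and low bull fertility groups and 17.0 in the high daughter fertility group, and had 31.0 and 29.9 in the low daughter fertility group.

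The leading 3′ fragments of the anticodons were of like level. The 3′ row of tRNA-Lys-CTT-1 had 1477 normalized counts in the high and 2146 in the low bull fertility group, and 1633 in the high and 2649 in the low daughter fertility group. The 3′ rows of tRNA-Lys-TTT-1 and TTT-5 were equal to each other in all groups, at 1462 in the high and 2092 in the low bull fertility group, and at 1785 in the high and 2467 in the low daughter fertility group. The ratio of the leading CTT to the leading TTT row was 1.01 in the high and 1.03 in the low bull fertility group, and 0.915 in the high and 1.07 in the low daughter fertility group. Summed over rows, TTT was above CTT in every group, with a CTT to TTT ratio of 0.345 in the high and 0.394 in the low bull fertility group, and of 0.322 in the high and 0.510 in the low daughter fertility group. With rows within 2% counted once, the ratio was 0.461 to 0.797 over the groups. TTT-13 had 1459 in the high and 2095 in the low bull fertility group, close to TTT-1, and 1783 in the high and 1328 in the low daughter fertility group. TTT-30 had 1431 and 2145 in the high and low bull fertility groups, and 1894 and 1409 in the high and low daughter fertility groups. In TTT-13 and TTT-30 the high daughter fertility value was thus the higher one, and in TTT-1 and TTT-5 the lower one. The high daughter fertility values of these fragments all came from 1 library. The low daughter fertility values came from different libraries. For TTT-1 and TTT-5 it was the library also labelled high bull fertility, and for TTT-13 and TTT-30 it was another. This contrast is therefore not one seen inside the same libraries.

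CTT-2 had the fold changes farthest below 0 among the 3′ fragments with a mean of at least 10, in the authors' deposited table. It had 997 normalized counts in the high and 1799 in the low bull fertility group, and 1080 in the high and 1853 in the low daughter fertility group. Its log2 fold changes in the authors' deposited table were -0.75 (SE 0.79, p = 0.338, authors' test) and -1.32 (SE 0.79, p = 0.0926). CTT-1 had -0.39 and -1.22 (SE 0.79 each) in the authors' deposited table, and TTT-1 had -0.37 and -0.78 (SE 0.78 each). In all 3 fragments the low daughter fertility value came from the library that is also labelled high bull fertility. At 2649 for CTT-1, 1853 for CTT-2 and 2467 for TTT-1, this library was above the middle value of the low bull fertility group, so the ranges of the bull fertility groups overlap.

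A further set, the 3′ rows of TTT-2, TTT-4 and TTT-8, differed by less than 2% in every group. TTT-2 had 487 and 576 normalized counts in the high and low bull fertility groups, and 405 and 375 in the high and low daughter fertility groups.

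Summed over rows, the balance of the ends differed between the anticodons. Fragments from the 5′ end were 77.6% of CTT in the high and 77.2% in the low bull fertility group, and 84.2% in the high and 75.4% in the low daughter fertility group. In TTT they were 33.0% in the high and 19.8% in the low bull fertility group, and 37.0% in the high and 24.7% in the low daughter fertility group. Fragments from the 3′ end were 9.10% to 17.1% of CTT and 44.4% to 57.1% of TTT. No group of TTT reached the 5′ share of any group of CTT. These shares are sums of group values with no spread over samples. From the most abundant row of each type alone, the 5′ share of TTT was 56.8% in the high and 42.5% in the low bull fertility group, and 44.1% in the high and 40.2% in the low daughter fertility group, still below every CTT share. Single entries of the anticodons overlapped in their 5′ share. It was 8.40% to 18.4% over the groups in CTT-4, 20.8% to 27.6% in CTT-6, 45.6% to 57.0% in CTT-1, 84.3% to 91.8% in CTT-2 and 91.6% to 94.5% in CTT-3. Among TTT entries it was 2.26% to 3.49% in TTT-13, 20.5% to 53.8% in TTT-1 and 31.8% to 74.8% in TTT-2. TTT-24 had the 99.4% to 99.8% given above. The share was 25.5% to 54.7% in TTT-29, 7.73% to 31.1% in TTT-3 and 7.51% to 12.2% in TTT-5. Lower still were TTT-4 (0.181% to 1.95%), TTT-8 (0.405% to 1.78%) and TTT-15 (0.331% to 1.26%). TTT-11 and TTT-30 were at 0% in every group. These entries have a 5′, 3′ or other row with a mean of at least 100.

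**Figure D4:**
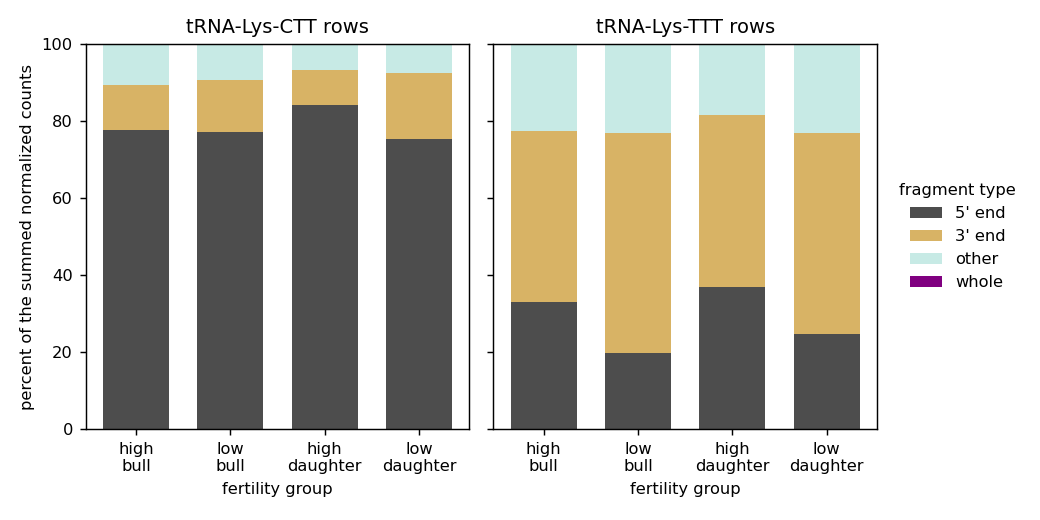
Share of each fragment type in the summed normalized counts of CTT rows and of TTT rows, in percent from 0 to 100, for the 4 groups. The 5′ share is between 75.4% and 84.2% in CTT and between 19.8% and 37.0% in TTT, and the whole-tRNA share is too small to be seen.

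Within TTT the 5′ over 3′ ratio of single entries also varied between libraries. Both ends of TTT-1 came from the same library in the high bull fertility group, where the ratio was 0.973, and in the low daughter fertility group, where it was 0.335. Both of these libraries are labelled high bull fertility. In CTT-2 the ratio inside 1 library was 11.2 in the high and 9.83 in the low bull fertility group, and 17.6 in the high daughter fertility group. Among the other entries whose ends could be read in the same library, all lay between or overlapped, except TTT-5, which lay below the rest. By group values, whose ends can come from different libraries, TTT-4, TTT-8, TTT-11, TTT-13, TTT-15 and TTT-30 were lower still. In TTT-13 that ratio was 0.0288 in the low daughter and 0.0426 in the low bull fertility group. Inside single libraries the ratio was 1.36 to 1.98 in CTT-1, and 0.388 and 1.58 in CTT-4. In TTT-2 the ratio was 2.30 in the high and 0.820 in the low bull fertility group. In TTT-5 it was 0.140 in the high daughter fertility group.

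The leading CTT 5′ fragment exceeded the leading TTT 5′ fragment in all groups. The ratio of CTT-2 to TTT-24 was 4.52 in the high and 9.44 in the low bull fertility group, and 11.2 in the high and 6.57 in the low daughter fertility group. In the high daughter fertility group the fragments came from different libraries, TTT-24 from the one also labelled high bull fertility. In each other group both came from the same library. Summed over rows, the CTT to TTT 5′ ratio was 3.05 in the high and 6.51 in the low bull fertility group, and 3.59 in the high and 4.76 in the low daughter fertility group. The high daughter fertility group thus had the higher ratio by the leading rows and the lower one by the sums. Whether the ratio differs with fertility was not tested, since there is 1 value for each group.

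Other fragments, those that the row names place at neither end, were led by CTT-1. It had 931 normalized counts in the high and 1170 in the low bull fertility group, and 797 in the high and 766 in the low daughter fertility group. Its log2 fold changes in the authors' deposited table were -0.37 (SE 0.62) for bull fertility and 0 to 2 decimals for daughter fertility. CTT-4 had 334 and 420 in the high and low bull fertility groups, and 271 and 314 in the high and low daughter fertility groups. Among TTT entries, TTT-1, TTT-2, TTT-3 and TTT-5 formed 1 set within 2%, led by TTT-3 with 421 and 439 in the high and low bull fertility groups, and 378 and 421 in the high and low daughter fertility groups. Equal values of the high bull and low daughter fertility groups, which show the library they share, occurred in 9 of the 53 rows. All 9 were of this type, and they include the set of TTT-1, TTT-2, TTT-3 and TTT-5. Over the whole table, at any mean, 4853 rows above 0 had such equal values. Equal values of the high bull and high daughter fertility groups occurred in 4 of the 53 rows, among them TTT-13 5′. TTT-15 had 58.3 in the high and 105 in the low bull fertility group, and 58.3 in the high and 72.0 in the low daughter fertility group.

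Reads over the whole tRNA were rare. They were above 0 in 2 of 34 entries, both CTT. CTT-2 had 9.71 normalized counts in the high and 19.0 in the low bull fertility group, and 15.7 in the high and 31.0 in the low daughter fertility group, from 6, 36, 12 and 43 reads. All 26 TTT entries are listed at 0 in every group, and 3 reads come to at most 4.86 normalized counts in any of these libraries.

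**Figure D5:**
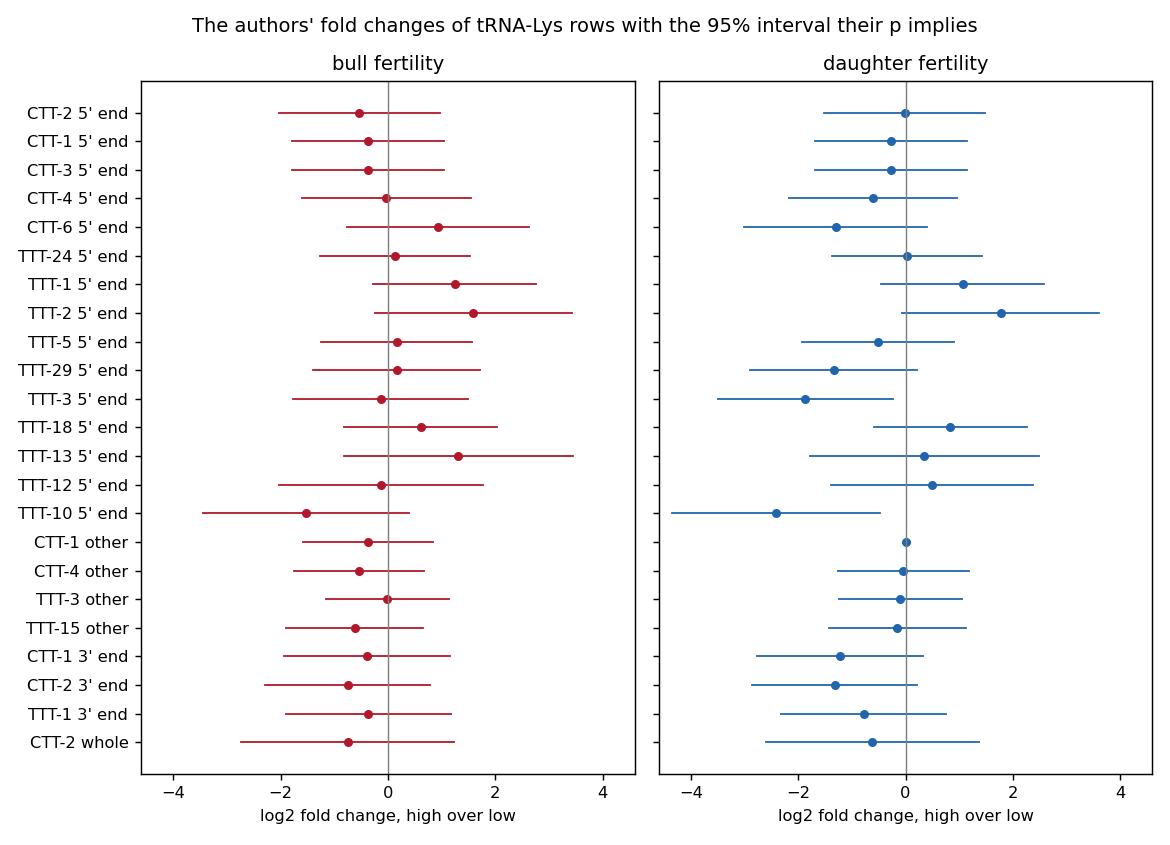
Log2 fold change of each named row, high over low fertility, for bull fertility (left) and daughter fertility (right). Points are the values of the authors' deposited table and bars the 95% interval that its p implies, except for CTT-1 other in daughter fertility, whose p of 0.999 gives none. All but 2 intervals cross 0, those of TTT-3 and TTT-10 5′ in daughter fertility.

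Across the family no row passed the threshold. With p-values of the authors' deposited table and Benjamini-Hochberg adjustment, 0 of 93 lysine rows with a p had an adjusted p under 0.05 for bull fertility, and 0 of 93 for daughter fertility. The background was 0% of 98760 rows in each comparison. At an unadjusted p under 0.05 the count was 0 for bull fertility, where the background was 0.249%, or 1.05% among rows with a mean of at least 10. For daughter fertility it was 2 (TTT-3 and TTT-10 5′), which is 2.15% of 93 rows against a background of 1.33%, and 3.77% of the 53 rows with a mean of at least 10 against 3.37%. Both shares are near their background.

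Fold changes below 0 outnumbered those above 0 among the lysine rows with a mean of at least 10. For bull fertility, 18 were above and 35 below 0, with a median log2 fold change of -0.20, beside a median of -0.03 over all 3795 rows of that level and of -0.19 over the 657 tRNA rows, from the authors' deposited table. For daughter fertility, 15 were above and 38 below 0, with a median of -0.18, beside 0.05 over all rows and -0.51 over the tRNA rows in the authors' deposited table. The lysine median was thus like that of tRNA rows for bull fertility and nearer 0 than theirs for daughter fertility. Shares below 0 for bull fertility were 66.0% of the lysine rows, 69.6% of the tRNA rows and 52.8% of all rows of that level. Those for daughter fertility were 71.7%, 80.1% and 47.4%, in the same order. The excess of lysine fold changes below 0 was thus no larger than that of tRNA rows in either comparison. Since rows may share reads, these counts and shares are descriptions.

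By end and anticodon the medians in the authors' deposited table were as follows. CTT 5′ rows had 1 of 5 above 0 for bull fertility (median -0.38) and 0 of 5 for daughter fertility (median -0.27). TTT 5′ rows had 7 of 12 above 0 (median 0.15) and 6 of 12 (median -0.24). Over all 210 tRNA 5′ rows, 56 were above 0 for bull fertility (median -0.16) and 44 for daughter fertility (median -0.40). The 5 CTT rows include CTT-1 and CTT-3, which lie within 2% of each other. Of the 11 lysine 3′ rows, 0 were above 0 for bull fertility, with a median of -0.35, the same as that of all 169 tRNA 3′ rows, of which 28 were above 0. For daughter fertility 3 of 11 were above 0, with a median of -0.06, beside -0.96 over tRNA 3′ rows, of which 23 were above 0. Counted once where they lie within 2%, the 11 rows became 8, with 0 and 3 above 0. The difference between CTT and TTT fold changes was not tested.

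Among isotypes, lysine ranked 7 of 24 isotype labels by its leading 5′ row and 5 of 24 by its leading 3′ row. It made up 2.49% of summed tRNA 5′ counts in the high and 2.16% in the low bull fertility group, and 2.73% in the high and 1.83% in the low daughter fertility group. Its share of 3′ counts was larger, at 21.5% in the high and 18.8% in the low bull fertility group, and at 19.0% in the high and 16.4% in the low daughter fertility group. These are sums over rows that may hold the same reads. With rows of identical values counted once in lysine and in the other isotypes, a counting chosen after seeing the data, the 3′ share was 18.9% in the high and 16.4% in the low bull fertility group, and 16.5% in the high and 14.0% in the low daughter fertility group. For scale, the 5′ row of tRNA-Gly-GCC-1, a leading sperm fragment, had 104369 normalized counts in the high and 209620 in the low bull fertility group, and 179868 in the high and 193762 in the low daughter fertility group.

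Among 298 tRNA rows of other isotypes with a mean of at least 100, the pattern over the 4 groups most like that of CTT-2 5′ was the 5′ row of tRNA-Pro-TGG-3, with a largest difference of 0.07 on the log2 scale after centring. The 5′ rows of tRNA-Pro-AGG-1 and tRNA-Pro-TGG-2 followed at 0.10 each. For TTT-24 5′ the nearest were the 5′ rows of tRNA-Gln-TTG-6, at 0.10, and tRNA-Arg-TCT-9, at 0.15. Likeness over 4 values, 2 pairs of which share a library, is a weak description.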

How the data were processed

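Small RNA libraries were made with a NEBNext kit from sperm RNA of 10 samples, per the labels' protocols. The tools listed per the submitters' processing notes are Trimmomatic 0.39 and DESeq2 1.34.0, whose roles are not stated. Aligner, build, annotation, library totals and the rule for reads that fit several tRNAs: not given in the sources used here. Per the file headers, the authors deposited for each fragment its log2 fold change and unadjusted p-value in both comparisons, with 1 normalized count signal for each of 4 groups. The microRNA tables were used for mean signal alone, as deposited by the authors.

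What 1 read is worth was found from the values: within a tolerance of 0.0001, positive values were whole multiples of 1 of 3 steps in their group. The step 1 group shares with another identified their common library. Benjamini-Hochberg adjustment ran over all 98760 rows with a p, with a threshold of 0.05. An SE was the fold change divided by the normal quantile of its p. Routines were tested on simulated data. Python 3.11.15, pandas 2.3.3, numpy 2.4.6 and scipy 1.17.1 were used.

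Named rows were the most abundant of each anticodon and type, the next 3 different 5′ rows of each anticodon, and up to 4 rows in each direction by smallest p in each comparison among those with a mean of at least 10. TTT-4, TTT-6, TTT-8, TTT-9 and TTT-30 were named after their values were seen. Members and lists were chosen with earlier results of these data known. The planned count test could not be run on group values. No sequence is printed, since no file used here holds the tRNA sequences. RefSeq genes of ARS-UCD2.0 were matched by name only.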

Additional observations from a re-analysis of the deposited data

Results flagged for a closer look

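Some rows with lysine in their name lay outside the rule for lysine fragments and above the 4.86 normalized counts that 3 reads give in the library where a read is worth most. Antisense counts of tRNA-Lys-TTT-27 had a mean of 127, with 137 in the high and 189 in the low bull fertility group, and 114 in the high and 65.7 in the low daughter fertility group. No other of the 34 antisense rows had a mean of at least 10. Among entries with the tRX prefix and no anticodon, 30 of 296 5′ rows and 7 of 296 3′ rows had a mean of at least 10, and the highest of each kind is given here. The 5′ row of tRX-Lys-NNN-183 had a mean of 4443, with 4323 and 3686 in the high and low bull fertility groups, and 4050 and 5714 in the high and low daughter fertility groups. By mean it would have been next after CTT-2 among the lysine 5′ rows. The 3′ row of tRX-Lys-NNN-2 had a mean of 460 and the values of the TTT-4 3′ row, 486 and 576 in the high and low bull fertility groups, and 404 and 375 in the high and low daughter fertility groups.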

How the results depend on the processing

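No lysine row passed an adjusted p of 0.05 (Benjamini-Hochberg) when the adjustment ran over rows with a mean of at least 10, of at least 100, or over rows with different values. The median fold change stayed below 0 under every alternative run, from -0.24 to -0.05 for bull and from -0.32 to -0.06 for daughter fertility. The CTT to TTT 5′ ratio moved: from sums over rows, also with identical rows counted once, it was 3.05 in the high and 6.51 in the low bull fertility group, and 3.59 in the high and 4.76 in the low daughter fertility group, which turns the order of the daughter fertility groups. With rows within 2% counted once, an alternative chosen after seeing the data, it was 2.54 and 5.73 in the high and low bull fertility groups, and 3.13 and 3.91 in the high and low daughter fertility groups. The 5′ share also moved. From the most abundant row of each type it was 82.2% and 84.1% of CTT in the high and low bull fertility groups, 88.6% and 78.8% in the high and low daughter fertility groups, and in TTT 56.8% and 42.5%, then 44.1% and 40.2%, in the same order. Identical rows counted once gave 37.3% and 23.2%, then 41.8% and 29.7%, in TTT alone. Rows within 2% counted once gave 74.3% and 74.9%, then 82.3% and 71.6%, in CTT, and 44.4% and 28.0%, then 47.7% and 35.3%, in TTT. Log2 ratios of the group values with pseudocounts of 1 and 10 turned the direction of the authors' fold change for bull fertility in CTT-1 5′ (0.024 with either), CTT-3 5′ (0.028 and 0.027), TTT-3 5′ (0.14 and 0.12), TTT-12 5′ (0.061 and 0.038), TTT-13 5′ (-0.65 and -0.58) and TTT-29 5′ (-0.051 and -0.044). For daughter fertility they did so in CTT-2 5′ (0.57 with either), CTT-1 other (0.057 and 0.056) and TTT-24 5′ (-0.19 with either). They moved TTT-10 5′ to -0.31 and -0.18 for bull and, with 10, to -0.91 for daughter fertility, and TTT-12 5′ with 1 to 1.82 for daughter fertility. The cause was not tested. Identical rows counted once moved the lysine share of 3′ counts to 14.0% to 18.9%.

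Leaving out a replicate and the planned count-based alternatives were not run, since the files give 1 value per group. No paired analysis was possible because the values carry no replicate numbers. Low rows rest on few reads, and 3 libraries per group limit all comparisons.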
